A study of Mus musculus with 6 samples.

Results

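Cripto (Tdgf1), the cell-surface co-receptor of the Nodal pathway, was higher in testes of mice lacking Ttll5 than in testes of wild-type (WT) mice, and the Nodal ligand, its receptors, its inhibitor Lefty1 and its transcription factors did not pass the test beside it. The genes described here are 10 members of Nodal signalling, chosen by symbol: the co-receptors Tdgf1 and Cfc1, the ligand Nodal, the inhibitors Lefty1 and Lefty2, the activin receptors Acvr1b, Acvr2a and Acvr2b, and the transcription factors Foxh1 and Smad2. Of these, 9 had at least 1 probe set annotated to a single gene symbol, 81 probe sets in all, out of 15792 genes with 179163 such probe sets. No such probe set carried the symbol Lefty2, which is therefore not analysed here. Tdgf1 was known to be past the significance threshold in these same arrays when the list was drawn up, so its difference between the genotypes is a description and not a test. That difference stayed positive under every alternative that gave it a value, but its call was lost with some single arrays left out. The other members were taken for their roles in the pathway.

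Nodal is a secreted ligand of the transforming growth factor beta family that patterns the early embryo and has also been described in fetal male germ cells and in testicular germ cell tumours. It signals through a type II activin receptor (Acvr2a or Acvr2b) and the type I receptor Acvr1b, also called ALK4. A co-receptor of the EGF-CFC family, Cripto (Tdgf1) or Cryptic (Cfc1), takes part. The activated receptor phosphorylates Smad2, which enters the nucleus and acts with Foxh1 on target genes, among them Nodal itself and the Lefty genes, whose products block the ligand and the co-receptor.

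Total RNA of testes was measured on 6 exon arrays, 3 from WT males and 3 from Ttll5/Stamp knockout (KO) males, all on a background mixed from FVB/N, 129/SvEv and C57BL/6 stock. The labels describe biological replicates and littermate cohorts matched for age and sex, without giving an age, the nature of the knockout allele or which animals were littermates, so p-values here reflect only how these 6 samples vary. Ttll5, a tubulin-modifying enzyme and the gene that was disrupted, had gene values of 11.16, 11.14 and 11.16 in WT and 9.58, 9.49 and 9.53 in KO (log2), which fits the labels of all 6 arrays. All values are log2 levels, a gene value is the mean over the gene's probe sets, and differences are KO minus WT. Levels of different genes are not compared, because probes differ in brightness; as an aid to reading, the lower quartile of all probe sets lay at 4.59 to 4.67 and the median at 6.72 to 6.77.

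Markers of the tissue were in place. Mean levels of the spermatid markers were 12.76 to 12.83 in WT and 12.69 to 12.75 in KO, and those of the spermatocyte markers 11.27 to 11.39 and 11.24 to 11.26 (6 genes each). The 5 measured Leydig cell markers stood at 9.39 to 9.85 in WT and 9.97 to 10.11 in KO, and the 6 macrophage and leukocyte markers at 4.92 to 5.05 and 5.12 to 5.19, with 3 of the 6 below the lower quartile. These 4 of the 9 marker lists did not overlap between the groups. Of their 23 genes 0 passed the threshold in limma and 6 had an unadjusted limma p under 0.05 (26.1%, against 6.05% of all genes). These lists were singled out because their means did not overlap, which by itself favours small p-values among their genes. Their part in the Tdgf1 difference was not tested. The 6 markers of pluripotent or embryonal cells, in which Cripto is abundant, did overlap in their mean level. It was 4.73 to 4.87 in WT and 4.82 to 4.99 in KO. The spermatogonia, Sertoli, peritubular myoid and endothelial lists overlapped as well. Of the 6 pluripotent or embryonal markers 4 had a higher mean in KO. In 1 of them, Utf1, all KO arrays lay above all WT arrays, with a difference of 0.23 (SE 0.08, limma adjusted p = 0.72). Nanog, Sox2 and Dppa3 of the same list lay below the lower quartile. In whole testes, a change in the number of cells of a type and a change in RNA per cell cannot be told apart.

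The promoter of Tdgf1 is shown because Tdgf1 is the member that differed, and because Smad2 and Foxh1 act through sites in DNA. The 250 bases before its annotated start on chromosome 9 (RefSeq, GRCm38.p6, chr9:110946159-110946408, minus strand) read, 5′ to 3′, with matches to the motifs named below in capitals:
Tdgf1: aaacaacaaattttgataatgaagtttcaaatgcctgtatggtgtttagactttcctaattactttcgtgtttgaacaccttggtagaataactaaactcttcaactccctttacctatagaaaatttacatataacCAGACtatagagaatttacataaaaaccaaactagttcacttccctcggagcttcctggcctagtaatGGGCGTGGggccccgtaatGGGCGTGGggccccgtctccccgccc

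The window held 1 match to the Smad box CAGAC, a motif present on either strand in 42.2% of 32851 promoter windows of that length. It held no match to the Foxh1 motif AATNCACA, which 3.18% of windows held. The other capitals are 2 matches, read on the opposite strand, to CCACGCCC, a motif bound by factors of the Sp and KLF type. It occurred in 4.79% of windows, was picked after the sequence was seen and does not overlap the Smad box. Both lie in a 21-base stretch that occurs at 2 places whose starts are 19 bases apart. Of the 9 measured members, 6 had a promoter in the RefSeq table. None of those 6 held the Foxh1 motif, and Cfc1, Acvr2a and Acvr2b each held 1 Smad box. The arrays do not measure promoters, so these are letters in a window and no more.

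The co-receptors were unlike each other. The gene value of Tdgf1 was 4.52, 4.33 and 4.30 in WT and 5.28, 5.41 and 5.19 in KO. Every KO testis lay above every WT testis, and the WT values lay below the lower quartile of the arrays. The difference was 0.91 (SE 0.091, 95% interval 0.70 to 1.12), a 1.88-fold higher level, and 16 genes on the arrays had a larger rise. Its adjusted p in limma over all genes, the value known when the list was drawn up, was 0.012, where 11 of 15792 genes passed in either direction (0.0697%) and 7 were higher in KO (0.0443%).

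Tdgf1 was covered by 4 probe sets, and all 4 had a higher mean in KO, by unequal amounts. In 3 of the 4 the KO arrays lay above all WT arrays, as in 4.97% of all probe sets, a count that the choice of Tdgf1 bears on. Probe set 1 (numbered by size of difference) read 5.04, 5.39 and 5.18 in WT and 7.05, 7.10 and 6.74 in KO, a difference of 1.76 (SE 0.15), or 3.38-fold. Its mean lay at percentile 32 of all probe sets in WT and at percentile 53 in KO. It was the only one of the 4 past the threshold among single probe sets (limma adjusted p = 0.029, where 0.0382% of 188590 passed), and it missed the threshold with any 1 of the 6 arrays left out (limma adjusted p = 0.071 to 0.23). Probe set 2 read 3.73, 3.49 and 3.61 in WT and 3.92, 4.95 and 4.15 in KO, with KO 2 well above the other KO arrays, and differed by 0.73 (SE 0.26).

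Probe set 3 of Tdgf1 read 4.63, 4.69 and 4.85 in WT and 5.58, 5.09 and 5.42 in KO, a difference of 0.65 (SE 0.16). Probe set 4 read 4.67, 3.77 and 3.54 in WT against 4.57, 4.50 and 4.46 in KO, a difference of 0.52 (SE 0.28), and was the only one in which the groups overlapped, because WT 1 lay above all 3 KO arrays. The WT means of probe sets 2 and 4 lay below the lower quartile, where a level is not shown to be above background. So did their KO means, 4.34 and 4.51. Without probe set 1, which was singled out after its values were seen, the gene value differed by 0.63 (SE 0.11). Which exons they cover is not stated in the sources used here. RefSeq also lists 2 pseudogenes, Tdgf1-ps1 on chromosome 16 and Tdgf1-ps2 on chromosome 17, neither with a probe set of its own here, and signal from them cannot be told apart from that of Tdgf1.

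**Figure D1:**
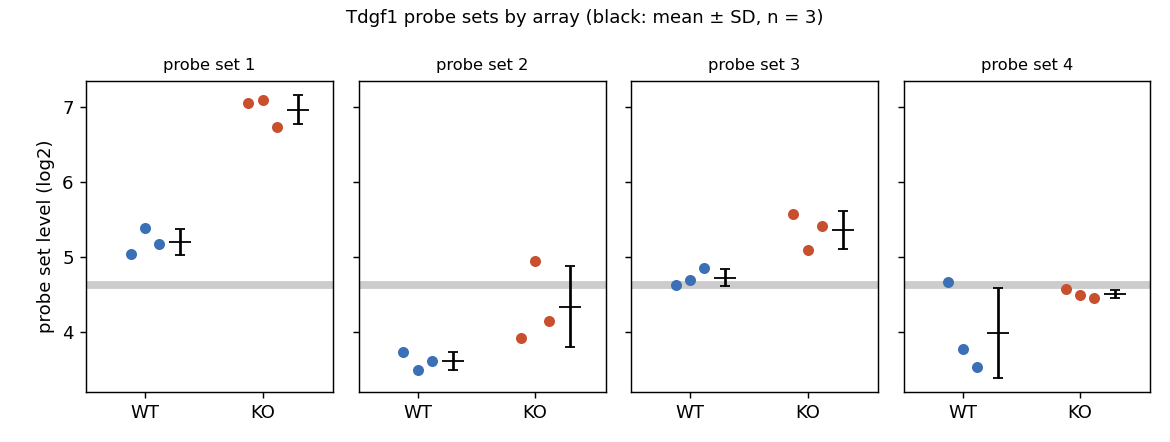
Level (log2) of the 4 Tdgf1 probe sets in each WT (blue) and KO (red) array, in order of difference, with the mean ± SD (n = 3) in black and the lower quartile of the 6 arrays as a grey band. Probe set 1 separates the groups by 1.76, probe sets 2 and 3 by 0.73 and 0.65 with no overlap, and the groups overlap in probe set 4 because of WT 1.

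The call of Tdgf1 depended on single arrays. With 1 array left out the difference ran from 0.86 to 0.98, and it missed the threshold without WT 2 (limma adjusted p = 0.069), WT 3 (0.080), KO 1 (0.070) or KO 2 (0.073). With the replicate number as a block it was 0.91 (limma adjusted p = 0.054). With the median of its probe sets it was 0.65 (limma adjusted p = 0.56). With dim probe sets left out, 1 of the 4 remained and the difference was that probe set's 1.76; the KO arrays count towards that filter and favour it.

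Cfc1, the co-receptor that serves Nodal in left-right patterning, read 4.64, 4.39 and 4.71 in WT and 4.52, 4.47 and 4.58 in KO. The groups overlapped, and the difference was -0.06 (SE 0.096, 95% interval -0.28 to 0.16, limma adjusted p = 0.97). Of its 9 probe sets 3 had a higher and 6 a lower mean in KO, from -0.42 to 0.46. The one with the highest difference, with WT levels of 3.54, 3.37 and 3.55 and KO levels of 3.98, 3.88 and 3.95, kept the groups apart at a level below the lower quartile and did not pass (limma adjusted p = 0.84). Another kept them apart the other way, also below the lower quartile. It read 3.3, 3.21 and 3.19 in WT and 3.02, 2.91 and 3.15 in KO, a difference of -0.21 (SE 0.12, limma adjusted p = 0.96).

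The ligand Nodal read 4.59, 4.66 and 4.79 in WT and 4.63, 4.62 and 5.05 in KO. KO 3 was the highest of the 6, the other KO arrays lay among the WT arrays, and the difference was 0.09 (SE 0.12, 95% interval -0.20 to 0.37, limma adjusted p = 0.97). Of its 6 probe sets 5 had mean levels below the array medians. The brightest, with WT levels of 8.12, 8.0 and 7.98 and KO levels of 7.84, 8.26 and 8.72, had both the lowest and the highest array in KO, and differed by 0.24 (SE 0.22).

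Lefty1, an inhibitor of Nodal and itself a target of the pathway, read 4.66, 4.57 and 4.71 in WT and 4.55, 4.49 and 4.76 in KO. The groups overlapped, with a difference of -0.05 (SE 0.090, 95% interval -0.25 to 0.16, limma adjusted p = 0.98). Its 7 probe sets ran from -0.34 to 0.22, and all had mean levels of 3.05 to 5.72, below the array medians. The groups did not overlap in the probe set with the most negative difference, with WT levels of 5.63, 6.03 and 6.02 and KO levels of 5.52, 5.53 and 5.61, but it did not pass (limma adjusted p = 0.93).

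**Figure D2:**
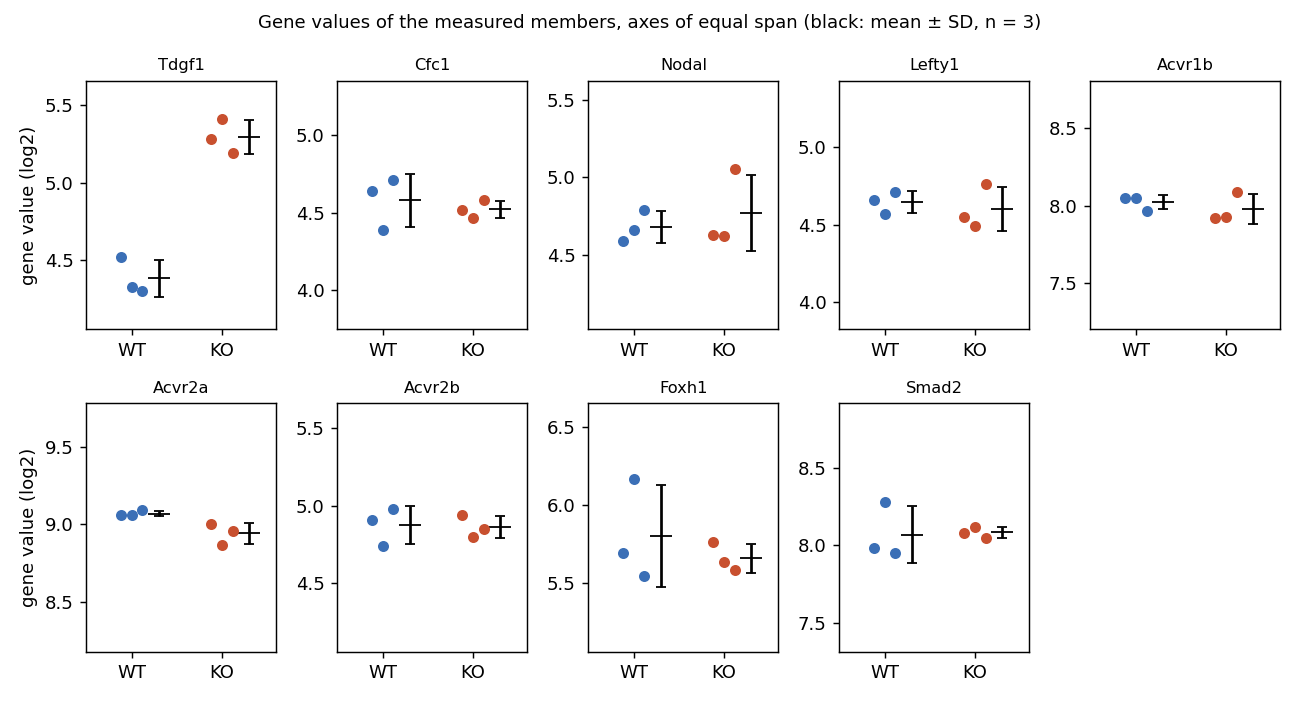
Gene values (log2, mean over probe sets) of the 9 measured members in each WT (blue) and KO (red) array, with mean ± SD (n = 3) in black; every vertical axis spans the same range of 1.6. Tdgf1 shifts from 4.30 to 4.52 in WT to 5.19 to 5.41 in KO, whereas Acvr2a is the only other member whose groups do not overlap.

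The 3 receptors gave 0 calls in limma and 0 at an unadjusted p under 0.05. Acvr1b, the type I receptor ALK4, read 8.05, 8.05 and 7.97 in WT and 7.92, 7.93 and 8.09 in KO. KO 3 lay above all WT arrays and the other KO arrays below them, with a difference of -0.04 (SE 0.077, 95% interval -0.22 to 0.13, limma adjusted p = 0.98). Its 8 probe sets were split evenly, 4 higher and 4 lower.

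Acvr2a, a type II receptor that also binds activins, read 9.06, 9.06 and 9.09 in WT and 9.0, 8.87 and 8.96 in KO. All KO arrays lay below all WT arrays, but the difference of -0.12 (SE 0.069, 95% interval -0.28 to 0.03) did not pass (limma adjusted p = 0.87). Groups that do not overlap were found in 11.2% of all genes, and KO below WT in 6.67%. Of its 16 probe sets 11 had a lower mean in KO, and the largest difference, -0.67 (SE 0.25), came from one that read 9.69, 9.01 and 9.17 in WT and 8.72, 8.19 and 8.95 in KO (limma adjusted p = 0.89).

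Acvr2b, the other type II receptor, read 4.91, 4.74 and 4.98 in WT and 4.94, 4.80 and 4.85 in KO. The groups overlapped in the gene value, with a difference of -0.01 (SE 0.084, 95% interval -0.21 to 0.18, limma adjusted p = 1). Its 11 probe sets moved both ways. One read 4.76, 4.34 and 4.42 in WT against 4.19, 3.94 and 3.87 in KO, a difference of -0.51, and another 5.16, 4.64 and 4.96 against 5.26, 5.26 and 5.34, a difference of 0.36, and neither passed (limma adjusted p = 0.87 and 0.93).

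Foxh1, the DNA-binding partner of Smad2, read 5.69, 6.17 and 5.54 in WT and 5.76, 5.63 and 5.58 in KO. WT 2 stood above the other arrays, and the difference was -0.14 (SE 0.15, 95% interval -0.49 to 0.21, limma adjusted p = 0.95), the widest interval among the members. Smad2, the signal transducer, read 7.98, 8.28 and 7.95 in WT and 8.08, 8.12 and 8.05 in KO, with all KO arrays inside the WT range. Its difference was 0.01 (SE 0.098, 95% interval -0.21 to 0.24, limma adjusted p = 1), and its 14 probe sets were split 7 to 7. Phosphorylation of Smad2, through which the pathway signals, is not visible to an RNA measurement.

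The 8 members other than Tdgf1 gave 0 calls in limma, 0 at an unadjusted p under 0.05 (6.05% of all genes), and a median difference of -0.04, where all genes had -0.003. Their 95% intervals reached at most 0.37 upward and -0.49 downward, so a rise in gene value of the size of Tdgf1's 0.91 lay outside each. Most probe sets of Cfc1, Nodal, Lefty1 and Acvr2b lay near or below the lower quartile, so for these genes the intervals speak of the measured signal only. Among their 77 probe sets, 35 had a higher and 42 a lower mean in KO, 0 passed in limma and 5 had an unadjusted p under 0.05 (5.36% of all probe sets did). The groups did not overlap in 9 of the 77 (11.7%), 3 with KO above and 6 with KO below, where 10.2% of all probe sets did not overlap. That share was close to the background, and the differences, from -0.67 to 0.46, all lay short of the smallest rise of a Tdgf1 probe set, 0.52, on the upper side.

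**Figure D3:**
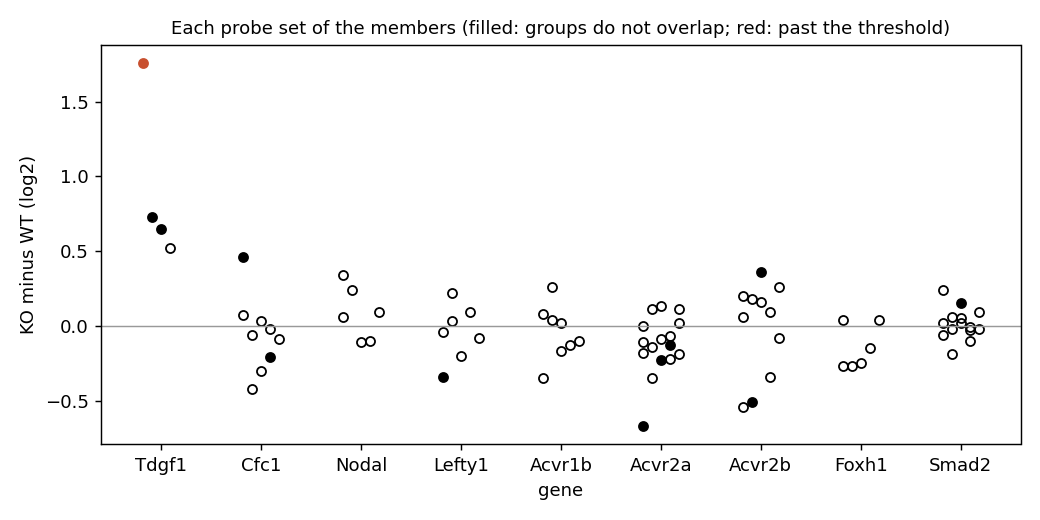
Difference KO minus WT (log2) of each of the 81 probe sets of the 9 members, by gene; filled points mark probe sets whose groups do not overlap and the red point the one past the threshold. The 4 probe sets of Tdgf1 lie at 0.52 to 1.76, and those of the other genes spread on both sides of 0, from -0.67 to 0.46.

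A wider list of the pathway and its relatives gave no further call. It was written with earlier results of these data known and held 62 genes outside the members, of which 55 were measured. In limma 0 passed and 2 had an unadjusted p under 0.05 (3.64%, against 6.05% of all genes). In this list 42 genes had a higher value in KO and 13 a lower one (76.4% higher, against 48.9% of all genes), with a median of 0.04, and the groups did not overlap in 12.7% of them, against 11.2%.

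Both genes with an unadjusted p under 0.05 were receptors of neighbouring branches. Acvr1, the type I receptor ALK2 for bone morphogenetic proteins, read 5.54, 5.47 and 5.25 in WT and 5.93, 5.67 and 5.68 in KO, a difference of 0.34 (SE 0.10, limma adjusted p = 0.67). Tgfbr1, the type I receptor for transforming growth factor beta, read 9.18, 9.21 and 9.22 in WT and 8.93, 9.02 and 8.85 in KO, a difference of -0.27 (SE 0.073, limma adjusted p = 0.60). In each the 2 groups did not overlap, in opposite directions.

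Of the 9 measured ligands 5 had higher and 4 lower values, and those with the largest differences were the activin subunit gene Inhbe at 0.22 (SE 0.11) and Gdf3, which signals through the same receptors and co-receptors, at -0.15 (SE 0.094). All 6 antagonists had a higher mean in KO, by 0.01 to 0.18, with groups that overlapped in 5 of the 6. The largest were Cer1, which binds Nodal, at 0.18 (SE 0.12) and follistatin (Fst), which binds activins, at 0.16 (SE 0.076). Among the 3 proprotein convertases, the enzymes that cleave such ligands into active form, Pcsk4, the convertase of spermatids, stood at 0.13 (SE 0.081) and Pcsk5 at 0.12 (SE 0.067). None of the genes in this paragraph passed in limma.

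Inside the cell, Smad3, which shares receptors with Smad2, differed by 0.25 (SE 0.15) and the common partner Smad4 by 0.11 (SE 0.072), among 13 measured Smads and their regulators with a median of 0.02. The 10 transcription factors that act with Smads or are targets in the embryo had a median of 0.02 as well, with the largest differences in Sox17, 0.13 (SE 0.099), and Gsc, -0.09 (SE 0.14). The 7 genes whose products have been described as partners of Cripto ranged from -0.05 to 0.16, with Wnt11 at 0.16 (SE 0.089) and the Wnt co-receptor Lrp5 at 0.10 (SE 0.065). Again none passed in limma.

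**Figure D4:**
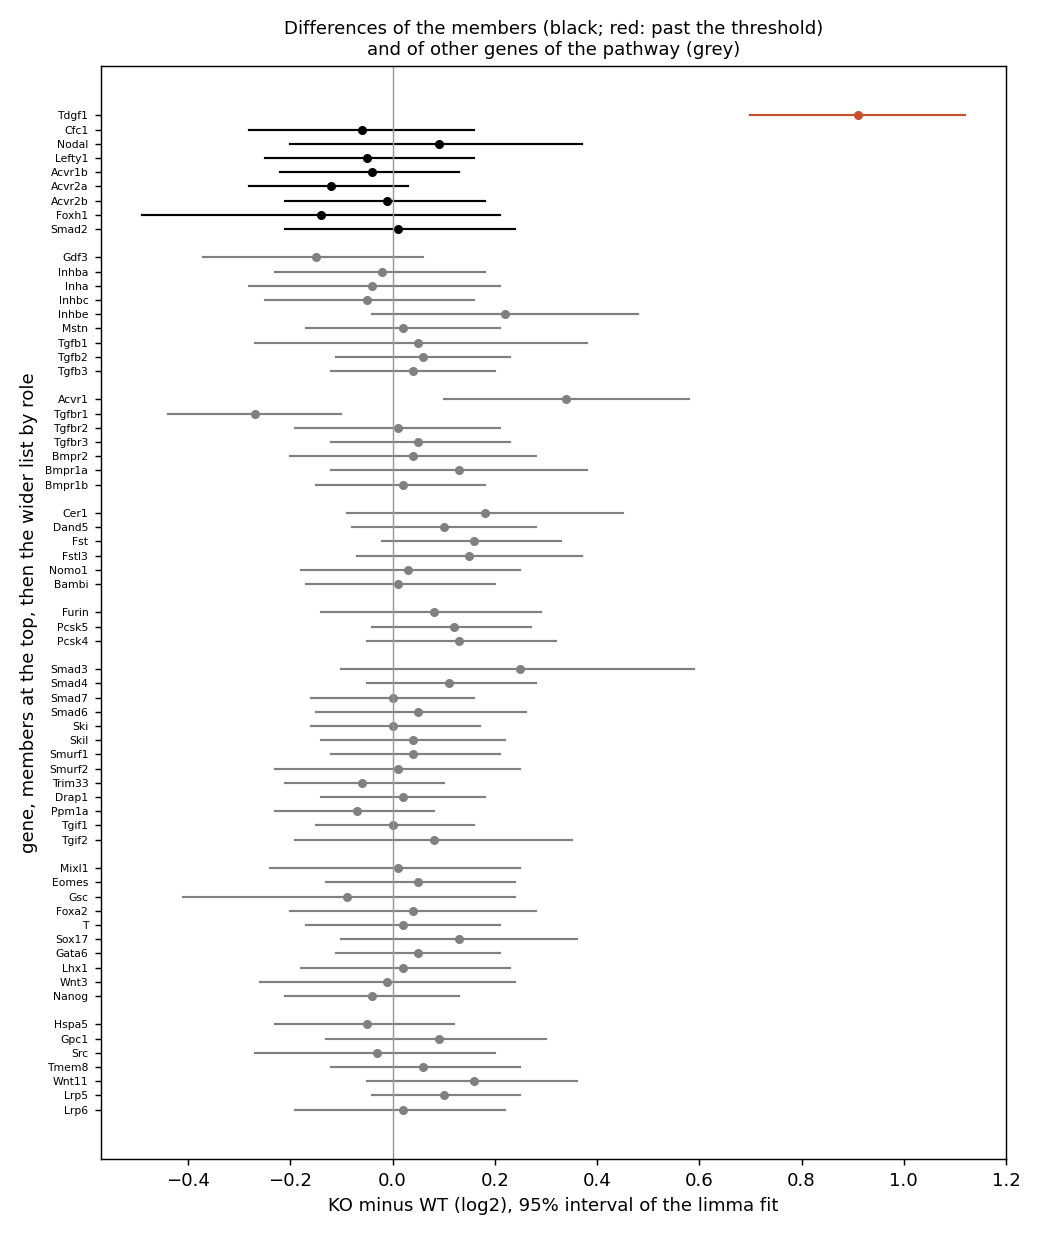
Difference KO minus WT (log2) with its 95% interval from the limma fit, for the 9 members (top; Tdgf1 in red, past the threshold) and 55 other measured genes of the pathway (grey) grouped by role. Tdgf1 stands at 0.91, and the next largest difference shown is that of Acvr1 at 0.34.

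Tdgf1 lies on chromosome 9, which held 5 of the 11 genes past the threshold, Tdgf1 among them, out of 939 measured there (5.95% of all genes). Its 10 nearest measured neighbours, 5 on each side in the RefSeq gene order of GRCm38.p6, gave 0 calls in limma (0.0697% of all genes were called) and 1 with an unadjusted p under 0.05 (6.05% of all genes). The genes next to Tdgf1, Als2cl and Lrrc2, differed by -0.04 (SE 0.077) and -0.01 (SE 0.070), with 95% intervals that ended at 0.13 and 0.16. The 1 neighbour apart was Ccrl2, a chemoattractant-binding receptor of leukocytes, which read 4.53, 4.89 and 4.68 in WT and 4.93, 5.27 and 5.14 in KO, a difference of 0.42 (SE 0.12, limma adjusted p = 0.63).

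Acvr2b lies on the same chromosome, with 40 measured genes between it and Tdgf1. A single measured gene, Exog, separates it from Scn10a, a sodium channel gene that was past the threshold at 0.89 (SE 0.071, limma adjusted p = 0.0028), while Acvr2b stood at -0.01 and Exog at 0.11 (SE 0.078). On the other side of Acvr2b lie Acaa1a at 0.11 (SE 0.15) and then Myd88 at 0.20 (SE 0.071). In Exog and Myd88 all KO arrays lay above all WT arrays, as in 4.53% of all genes. Neither passed (limma adjusted p = 0.91 and 0.75).

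**Figure D5:**
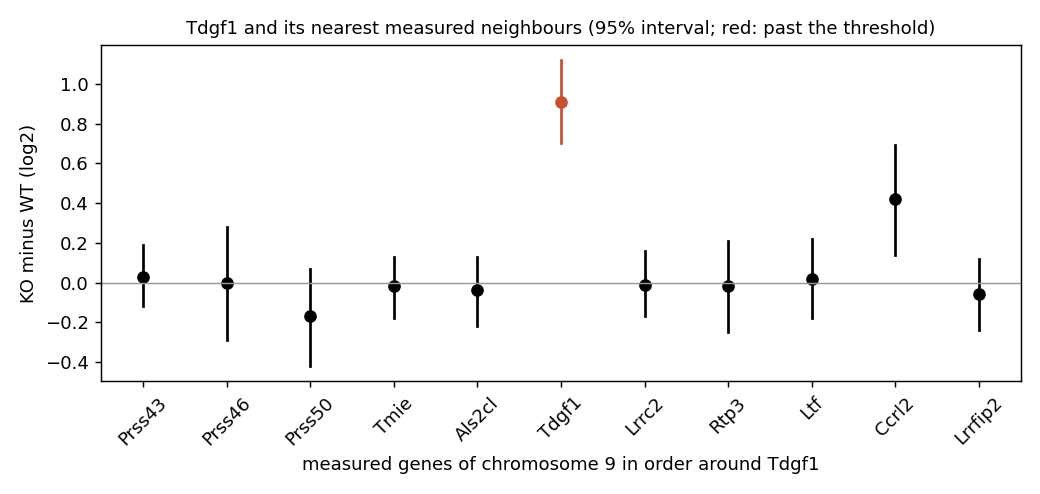
Difference KO minus WT (log2) with its 95% interval for Tdgf1 (red) and the 5 nearest measured genes on each side along chromosome 9, in order. Tdgf1 stands at 0.91 between neighbours at -0.04 and -0.01, and Ccrl2 at 0.42 is the other gene whose interval lies above 0.

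The genes whose values followed Tdgf1 most closely over the 6 arrays were Scn10a on chromosome 9 (Pearson r = 0.991), Cyp1a2, a cytochrome P450 on the same chromosome (0.989), the small GTPase gene Rhoj on chromosome 12 (0.981), the inducible nuclear receptor gene Nr4a3 on chromosome 4 (0.981) and the olfactory receptor gene Olfr1365 (0.980). In all 5 the lowest KO value exceeded the highest WT value, and r over 6 arrays in 2 groups mostly reflects that step, so it is a description. In size they differed widely, from 0.89 for Scn10a to 0.15 (SE 0.064) for Cyp1a2, and Scn10a alone of the 5 was past the threshold in limma. No member of the pathway was among them. Cyp1a2 and Olfr1365 lay below the lower quartile in every array, at percentiles 6 and 13 of all genes. In all, 35 genes (0.222%) had r above 0.95, 2 of them on chromosome 9 (5.71%, against 5.95% of all genes) and 11 on chromosome 12 (31.4%, against 3.06%), the chromosome of Ttll5.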

How the data were processed

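The authors deposited 1 table of log2 values for 188590 probe sets on 6 arrays; RMA and Partek 6.5 are named in the submitters' processing notes, with no role or order, and the sources used here give neither the background correction nor the annotation or genome build. RMA equalizes the arrays, which hides any shift common to most genes. Values were used as deposited. The platform annotation gave 1 symbol to 179163 probe sets, several to 1322 and none to 8105; gene values are means over probe sets with 1 symbol, with no filter on dim ones.

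Genotypes were compared with limma 3.58.1 under R 4.3.3 (lmFit, eBayes, two-sided, no covariate), on all 15792 genes and separately on all probe sets, with Benjamini-Hochberg adjustment over all of them and 0.05 as threshold. With 3 arrays a group, exact permutation could not go below p = 0.1. The number of arrays limits the precision. The fit was tested on simulated data. The members, lists and alternatives were chosen with earlier results of these data known. All measured members were named, with the 2 largest differences of each role in the wider list, the 5 genes most correlated with Tdgf1 (clone-type symbols passed over) and 5 neighbours on each side. RefSeq (GRCm38.p6) gave current names, gene order and the promoter sequence.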

Additional observations from a re-analysis of the deposited data

How the results depend on the processing

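The difference of Tdgf1 was positive under every alternative that gave it a value, from 0.63 to 1.76, but it missed the threshold with the median over probe sets (0.65), with no moderation of variances (0.91), with the replicate block (0.91) and without its leading probe set (0.63, an alternative added after the data were seen); with 1 array left out it ran from 0.86 to 0.98. The count of members past the threshold, 1 as reported, was 0 with the median, with no moderation, with the replicate block and with dim genes left out, a filter that removes Tdgf1, and 0 to 1 with 1 array left out. The count of their probe sets, also 1, was 0 with no moderation, with the replicate block, with a term for WT 1, KO 2 and KO 3 (arrays with a higher lower quartile) and with any 1 array left out (0 to 0). Over all genes the count of 11 became 5 with the median, 20 with trended and robust moderation and 2 with no moderation, and was 8 to 12 with 1 array left out. The wider list gave 0 calls in limma under every alternative run.

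The other members gave 122 values under the alternatives, none past the threshold in limma; 109 kept their sign and 13 turned it. With the median over probe sets Lefty1 stood at 0.14 and Acvr2b at 0.17, and without dim probe sets Smad2 at 0.00. With 1 array left out Cfc1 ran from -0.15 to 0.01, Nodal from -0.05 to 0.16, Lefty1 from -0.13 to 0.01, Acvr2b from -0.08 to 0.04, Foxh1 from -0.27 to 0.04 and Smad2 from -0.05 to 0.12. The replicate numbers are not known to pair animals. Same-numbered arrays had correlations of deviations of -0.17, 0.07 and 0.18 over genes, and WT and KO arrays of different numbers had -0.29 to 0.22. Low signal limits Tdgf1 in WT, and its probe sets 2 and 4 in KO as well. It also limits Cfc1, Nodal, Lefty1 and Acvr2b, most of whose probe sets lie near or below the lower quartile.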
